A study of Mus musculus with 9 samples.

Results

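The cells described here are cytotoxic lymphocytes of primary 168FARN mammary tumours. They are cells in the suspensions that carried transcripts of the killing machinery of T and natural killer (NK) cells and met the rule below. Members were chosen by their UMI counts (unique molecular identifiers, each standing for a captured transcript molecule). A cell barcode was a member if over 500 and below 7500 genes were detected in it with mitochondrial UMIs below 15%, if it held at least 2 of the 8 genes Nkg7, Prf1, Gzmb, Gzma, Cd8a, Ncr1, Klrk1 and Ccl5, and if it held Ptprc, Cd3e or Cd3g. It also had to hold 0 UMIs of H2BMc and Krt8, which mark the tumour cells, C1qa of macrophages and Pecam1 of endothelium. Foxp3 and Ctla4, taken here for regulatory T cells, had to be at 0 as well, although Ctla4 was also found without Foxp3 (below). The rule found 121 of the 58645 cells kept by the gene and mitochondrial limits, or 0.206% (exact 95% binomial interval 0.171 to 0.246). Members with a UMI of Cd3e or Cd3g are called CD3-positive (69 cells) and the others CD3-negative (52 cells).

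Cytotoxic lymphocytes kill by releasing perforin, which opens the target membrane, together with granzymes, proteases that start cell death inside the target. CD8 T cells find their targets through the T cell receptor, whose signal runs through the CD3 chains and is helped by the CD8 coreceptor. NK cells carry no T cell receptor and read stress ligands and missing MHC class I through receptors such as NKp46 (Ncr1), NKG2D (Klrk1) and CD94-NKG2A (Klrd1 with Klrc1), which signal through small adaptors or through inhibitory motifs.

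168FARN is a mouse mammary carcinoma line. It was transduced with an H2B-mCherry reporter (H2BMc) and grown in the mammary fat pads of female, immunocompetent BALB/c mice, and suspensions of whole tumours, frozen and then purified on Percoll layers to remove dead cells and debris, were sequenced with a 5′ single-cell method that counts UMIs at 1 end of the transcript, so that no length scaling is needed. The groups were parental tumours (WT) and tumours of Kmt2c KO and Kmt2d KO cells, each with 3 GEO samples and 3 libraries. Knockouts came from transient transfection with Cas9 and pooled guides followed by sorting, so that the tumours of a group replicate the mouse and not the knockout. The lymphocytes come from the host, and the 121 cells therefore carried intact Kmt2c and Kmt2d in every group.

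The matrix held 89147 barcodes, and library totals ran from 21529691 to 125617312 UMIs. Between 13.0% and 68.5% of the barcodes of a library were over the mitochondrial limit, highest in WT libraries 3 and 1. The letters of the aggregation table name a genotype but no GEO replicate, so libraries are listed by an arbitrary number, genotype values are pooled over cells, and genotypes were not tested against each other. The targeted transcripts did not separate the groups either: in cells with both H2BMc and Krt8, Kmt2c stood at 39.5 to 51.9 CPM (UMIs of the gene per 1000000 UMIs of the cells) in Kmt2c KO libraries and 46.0 to 48.9 elsewhere, and Kmt2d at 23.3 to 30.5 CPM in Kmt2d KO libraries and 14.4 to 28.5 elsewhere, so that the counts do not check the labels. Of the kept cells, 1889 barcode sequences occurred in more than 1 library. No barcode was shared between members, and 10 members had a barcode that was also kept in another library. The intervals printed cover counting error only.

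Cytotoxic cells were few in every tumour, and most came from a single Kmt2c KO tumour. In the Kmt2c KO libraries, there was 1 member among 11813 kept cells (0.00847%, 0.000214 to 0.0472) in library 1, 71 among 8743 (0.812%, 0.635 to 1.02) in library 2 and 24 among 6024 (0.398%, 0.255 to 0.592) in library 3. The Kmt2d KO libraries held 4 of 5997 cells (0.0667%, 0.0182 to 0.171), 5 of 7039 (0.071%, 0.0231 to 0.166) and 2 of 14525 (0.0138%, 0.00167 to 0.0497). The WT libraries held 5 of 1185 cells (0.422%, 0.137 to 0.982), 3 of 2380 (0.126%, 0.026 to 0.368) and 6 of 939 (0.639%, 0.235 to 1.39). The Kmt2c KO libraries spanned the range from the lowest to the highest of the series, and so overlapped both other groups, whereas the 3 Kmt2d KO shares lay below the 3 WT shares. Library 2 of Kmt2c KO alone held 58.7% of the members.

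**Figure D1:**
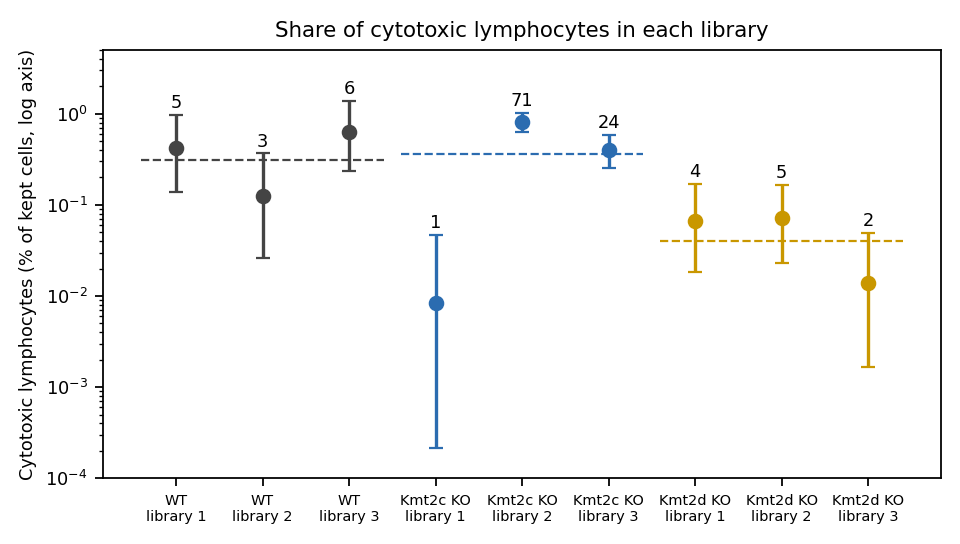
Share of cytotoxic lymphocytes among kept cells, in percent on a log axis, for each of the 9 libraries with exact 95% intervals, the number of members above each point and the pooled share of each group as a dashed line. The Kmt2c KO libraries run from 0.00847% to 0.812%, the WT libraries from 0.126% to 0.639% and the Kmt2d KO libraries from 0.0138% to 0.071%.

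Pooled over cells, the share was 0.311% for WT (14 of 4504, 0.17 to 0.521), 0.361% for Kmt2c KO (96 of 26580, 0.293 to 0.441) and 0.0399% for Kmt2d KO (11 of 27561, 0.0199 to 0.0714). Without library 2 the Kmt2c KO share was 0.140% (25 of 17837, 0.0907 to 0.207). With the 13 MHC class II-rich members described below left out, the shares were 0.266% for WT (12 cells), 0.335% for Kmt2c KO (89 cells) and 0.0254% for Kmt2d KO (7 cells), and that of library 2 of Kmt2d KO moved from 0.071% to 0.0284%. Among cells with a Ptprc UMI and without H2BMc and Krt8, which are closer to all leukocytes, cytotoxic cells made up 5.42% for WT (13 of 240, 2.92 to 9.08), 10.7% for Kmt2c KO (82 of 765, 8.62 to 13.1) and 3.03% for Kmt2d KO (11 of 363, 1.52 to 5.36). Without library 2, which supplied 60 of the 82, the Kmt2c KO value was 5.93% (22 of 371, 3.75 to 8.84). By library these shares were 6.94%, 2.67% and 6.45% in WT, 1.3%, 15.2% and 7.14% in Kmt2c KO and 2.65%, 5.38% and 1.68% in Kmt2d KO, so that all 3 groups overlapped. Without the MHC class II-rich cells they were 6.94%, 2.67% and 4.30% in WT, 1.3%, 14.5% and 5.78% in Kmt2c KO and 1.99%, 2.15% and 1.68% in Kmt2d KO, and the 3 Kmt2d KO values, each from 2 or 3 cells, then lay below the WT values. The lowest WT value, that of library 2, also rests on 2 of 75 cells, and its interval (0.325 to 9.3) holds all 3 Kmt2d KO values. Per CD3-positive cell with Foxp3 or Ctla4, the ratio of cytotoxic cells was 1.08 for WT, 1.01 for Kmt2c KO and 0.2 for Kmt2d KO, MHC class II-rich cells included. By library it was 1.0, 1.5 and 1.0 in WT, 0.167, 1.08 and 1.04 in Kmt2c KO and 0.125, 0.714 and 0.125 in Kmt2d KO. The Kmt2c KO libraries thus overlapped both other groups. WT was above Kmt2d KO in each of these pooled values, although the pooled intervals overlapped over the Ptprc-positive cells, and the order of WT and Kmt2c KO was not kept.

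The members were shallow cells. Their median was 1252 UMIs and 808 genes, against 13399 UMIs in 13348 tumour reference cells (H2BMc and Krt8 both present) and 2466.5 in 974 macrophage reference cells (C1qa present, no H2BMc, Krt8, Cd3e or Cd3g). UMIs per member ran from 664 to 9736, and 21 of the 121 members lay under 600 genes, close to the lower limit, the lowest at 504. Ribosomal protein genes took 3.01% to 13.2% of the members' UMIs by library, below the 15.2% to 18.3% of all kept cells of the same libraries. A gene at 0 in all 69 CD3-positive cells allows a share of cells with a UMI of up to 4.35%, and in the 39 CD3-negative cells described below of up to 7.69%.

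The genes of the rule define the members, and their levels are given as a description only. Nkg7, a granule membrane protein of killer cells, was seen in 79 members, Ccl5 in 64, Klrk1 in 58, granzyme B (Gzmb) in 42, perforin (Prf1) in 41, Cd8a in 34, Ncr1 in 14 and granzyme A (Gzma) in 12. In the macrophage reference cells, which should lack them, Nkg7 and Gzmb were each seen in 0.513%, Prf1 in 0.308%, Cd8a in 0.411% and Ncr1 in 0%. Klrk1 was seen in 9.86% of those cells and Ccl5 in 24.6%, and Ccl5 in 17.0% of the tumour reference cells. Klrk1 and Ccl5 are therefore the weakest of the 8 genes for telling a lymphocyte from another leukocyte in these suspensions. Exactly 2 of the 8 genes were found in 67 members, 3 in 20, 4 in 25, 5 in 6, 6 in 1 and 7 in 2. Just outside the rule, 219 cells met every other condition with exactly 1 of the 8 genes, 47 of them CD3-positive, at a median of 1681 UMIs against 1242 in the members with exactly 2. The exclusion genes also mattered: 263 cells met the rest of the rule, and 63 were left out by Foxp3 or Ctla4 alone, 13 of which held Cd8a or Cd8b1. Of these 63 cells, 32 held Ctla4 and no Foxp3, so the exclusion was not limited to cells with Foxp3.

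For the CD3-positive cells the rule itself sets the label, and for part of the CD3-negative ones the values went against it. In the test of the CD3-positive members against other CD3-positive cells below, no gene outside the rule passed. Of the 52 CD3-negative members, 13 held 10 or more UMIs over Cd74, H2-Aa and H2-Ab1, genes of MHC class II antigen presentation, a limit set after the values were seen. These 13 cells held 11 to 370 such UMIs with a median of 166, while no other CD3-negative member held more than 6 and no CD3-positive member more than 4. Every one of the 13 met the rule through Klrk1 with Ccl5, and none held Nkg7, Prf1, Gzmb, Gzma, Cd8a, Ncr1, Il2rb or the lymphocyte adaptor Skap1 (0 of 13 cells each, which allows up to 23.1%). Myeloid genes were frequent in them: Fcer1g in 13, Tyrobp in 12, the macrophage growth factor receptor Csf1r in 8, Lyz2 in 7 and the integrin Itgax in 7. The data thus go against the label for these 13 cells, which are called MHC class II-rich below. They came from 5 libraries, namely 3 and 4 cells in libraries 2 and 3 of Kmt2c KO, 1 and 3 in libraries 1 and 2 of Kmt2d KO and 2 in library 3 of WT.

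Summed over each marker list, macrophage markers stood at 68.67 CPM in CD3-positive members, 308.3 CPM in the 39 other CD3-negative members and 6044 CPM in the MHC class II-rich cells. Dendritic cell markers stood at 832.6, 1431 and 49460 CPM in the same order, but that list holds Cd74, H2-Aa and H2-Ab1, which chose the MHC class II-rich cells, and its 8 other genes stood at 618.0, 1035 and 1691 CPM. Most of the UMIs of these 8 genes were of Bst2, also an interferon response gene (59 of 72, 36 of 47 and 42 of 75). Markers of neutrophils and mast cells (25.75, 66.07 and 112.8 CPM), B cells (34.33, 132.1 and 67.65 CPM), fibroblasts (17.17, 44.04 and 0 CPM) and epithelium (8.584, 0 and 0 CPM) were low. Endothelial markers stood at 17.17, 44.04 and 225.5 CPM, and the last value was all of Kdr, found in 5 of the 13 cells. The defining genes S100a8, S100a9, Cd79a, Ms4a1, Krt18, Krt19, Col1a1 and Col3a1 were at 0 UMIs in all 121 members. One of the other CD3-negative cells held 7 UMIs of Siglech, a plasmacytoid dendritic cell gene, and 14 of Tyrobp.

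**Figure D2:**
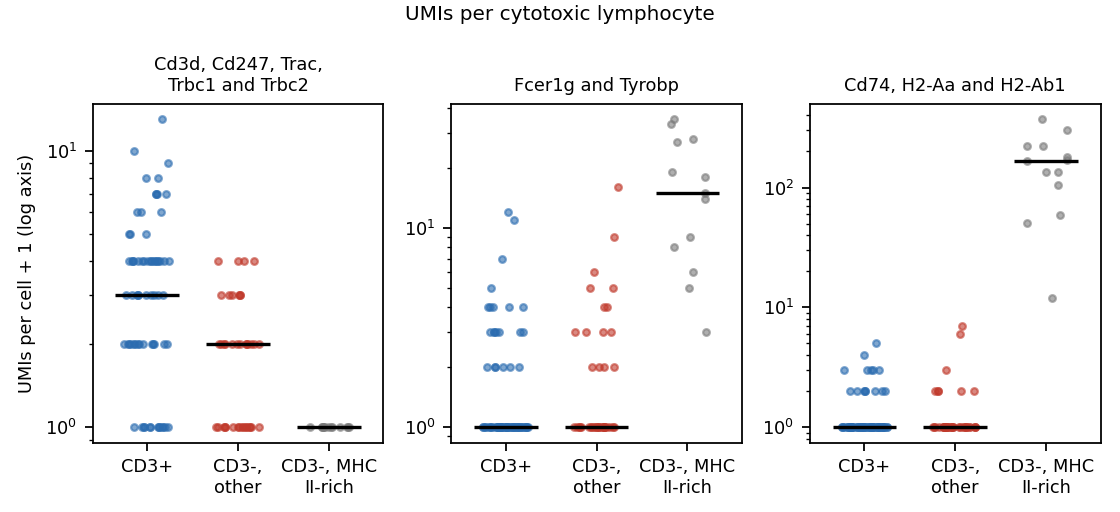
UMIs per cell for the T cell receptor complex (Cd3d, Cd247, Trac, Trbc1 and Trbc2), the adaptors Fcer1g and Tyrobp and MHC class II (Cd74, H2-Aa and H2-Ab1), plotted as UMIs + 1 on a log axis, with a point for each of the 69 CD3-positive, 39 other CD3-negative and 13 MHC class II-rich members and a bar at the median. Receptor UMIs reach 12, 3 and 0 in the 3 sets, and MHC class II UMIs reach 4, 6 and 370.

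The T cell receptor genes that the rule did not use followed the CD3 split in part. The summed UMIs of Cd3d, Cd247, Trac, Trbc1 and Trbc2 were above 0 in 56 of the 69 CD3-positive cells, with a median of 2 and a highest value of 12. They were above 0 in 23 of the 39 other CD3-negative cells, with a median of 1 and a highest value of 3, and in 0 of the 13 MHC class II-rich cells. The CD3 chain gene Cd3d (chr9:44981769-44987052 in GRCm38, beside Cd3e and Cd3g, from RefSeq) was found in 34 CD3-positive cells (49.3%, 37.0 to 61.6) and 2 CD3-negative cells (5.13%, 0.627 to 17.3), and the receptor alpha constant gene Trac in 14 (20.3%) and 1 (2.56%). The beta constant gene Trbc1 went the other way, with 9 CD3-positive cells (13.0%) and 9 CD3-negative ones (23.1%, 11.1 to 39.3), while its near-identical copy Trbc2 was in 25 (36.2%) and 8 (20.5%), so that reads may be split between these copies. Cd247, the signalling zeta chain that NK cells also use, was in 26 (37.7%) and 9 (23.1%). Of the 9 CD3-negative cells with Trbc1, 8 were in library 2 of Kmt2c KO. Since the CD3-negative cells were shallower (median 1024 UMIs against 1337), cells were also thinned to 1000 UMIs, which left 56 CD3-positive and 21 CD3-negative cells. Cd3d was then in 39.3% (26.5 to 53.2) and 4.76% (0.12 to 23.8), Trbc1 in 10.7% (4.03 to 21.9) and 14.3% (3.05 to 36.3) and Trbc2 in 28.6% (17.3 to 42.2) and 9.52% (1.17 to 30.4).

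Killing genes were found in both sets of lymphocytes, but Gzmb, Gzma and Prf1 belong to the rule and helped to choose the cells. Granzyme B was ahead of the other granzymes, of which the rule used Gzma alone. Gzmb stood at 532.2 CPM in the CD3-positive and 506.5 CPM in the 39 other CD3-negative cells, Prf1 at 515.0 and 396.4 CPM, and the granule protease Ctsw at 334.8 and 374.4 CPM (27 and 13 cells). Gzma was in 3 CD3-positive and 9 CD3-negative cells, at 25.75 and 286.3 CPM. The other granzymes were scarce: Gzmk gave 1 UMI and Gzmm 0 in the CD3-positive cells, and the 18 UMIs of Gzmc among CD3-negative cells came from 1 cell. The death ligand genes Fasl and Tnfsf10 were in 7 and 11 CD3-positive cells and in 5 of the CD3-negative cells each. Serglycin (Srgn), the proteoglycan that packs granules, was in 32 and 11 cells, but also in 28.1% of the macrophage reference. Prf1 was spread unevenly over the tumours, with 18 of 44 CD3-positive cells in library 2 of Kmt2c KO, 12 of 16 in library 3 and 0 of the 9 in all other libraries.

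Among secreted factors, the chemokine genes Ccl4 and Xcl1, whose products attract other leukocytes, were the most frequent after Ccl5 in the CD3-positive cells. Ccl4 was in 13 CD3-positive cells (703.9 CPM) and 6 CD3-negative cells (572.6 CPM), and Xcl1 in 13 (283.3 CPM) and 8 (418.4 CPM). Ccl3 was in 8 (145.9 CPM) and 7 (484.5 CPM). Xcl1 was in 8 of 44 CD3-positive cells in library 2, 0 of 16 in library 3 and 5 of 9 in the other libraries, the opposite order to Prf1. Interferon gamma (Ifng) gave 6 UMIs in 4 CD3-positive cells and 5 in 3 CD3-negative cells, and Il2 and Il17a gave 0 in the CD3-positive cells.

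**Figure D3:**
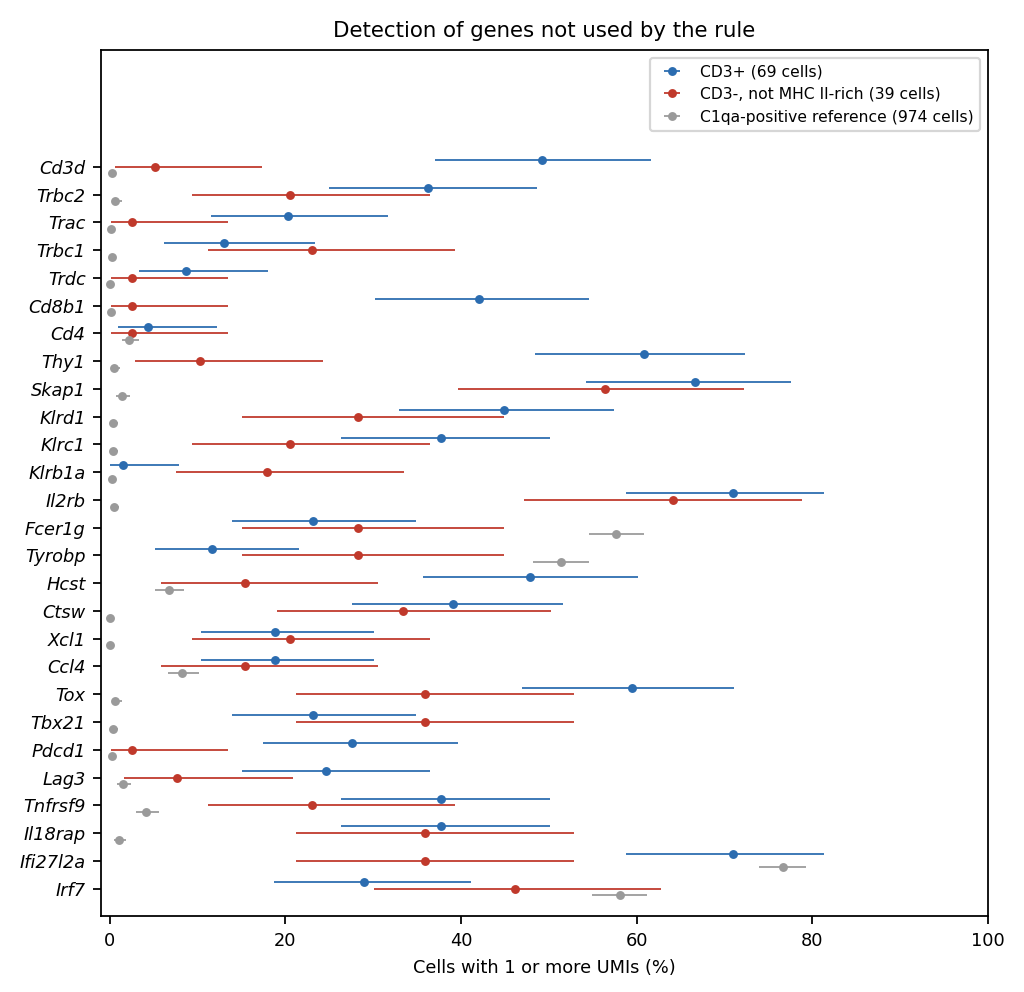
Percent of cells with at least 1 UMI of listed genes that the rule did not use, in the 69 CD3-positive members, the 39 other CD3-negative members and the 974 macrophage reference cells (C1qa-positive), with exact 95% intervals. Cd8b1 and Thy1 reach 42.0% and 60.9% of CD3-positive and 2.56% and 10.3% of other CD3-negative cells, and Il2rb reaches 71.0% and 64.1%.

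Of the coreceptor and signalling genes, some were seen mostly in CD3-positive cells and others in both sets. The CD8 beta chain gene Cd8b1 (chr6:71322788-71337492, beside Cd8a) was in 29 of 69 CD3-positive cells (42.0%, 30.2 to 54.5) and 1 of 39 CD3-negative cells (2.56%, 0.0649 to 13.5), and thinned in 28.6% (17.3 to 42.2) and 4.76%. Thy1, a surface glycoprotein of T cells, was in 42 (60.9%, 48.4 to 72.4) and 4 (10.3%, 2.87 to 24.2), and thinned in 42.9% (29.7 to 56.8) and 4.76%. The kinase gene Lck, which acts just below the receptor, was less divided, with 33 (47.8%) and 15 (38.5%). Skap1, an adaptor of the same pathway, was in 46 (66.7%) and 22 (56.4%). Themis, needed for T cell maturation, was in 22 and 1, and the T lineage factor Bcl11b in 17 and 2. These intervals count cells, which share a library, and the split was tested only over libraries (below).

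Receptors known from NK cells were not limited to the CD3-negative cells. Klrd1 (chr6:129588092-129598775, in the same gene complex as Klrk1 and Klrc1) was in 31 CD3-positive cells (44.9%) and 11 CD3-negative cells (28.2%), and its partner Klrc1 in 26 (37.7%) and 8 (20.5%). Il2rb, the receptor chain for interleukins 2 and 15, was in 49 (71.0%, 58.8 to 81.3) and 25 (64.1%, 47.2 to 78.8), the most frequent gene of the list. Ncr1, a gene of the rule, was in 2 CD3-positive cells (2.9%) and 12 CD3-negative cells (30.8%, 17.0 to 47.6), and Klrb1a in 1 (1.45%) and 7 (17.9%, 7.54 to 33.5). Klrb1c, which gives the NK1.1 epitope in other strains but not in BALB/c, gave 0 UMIs in CD3-positive and 2 in CD3-negative cells. Reads of the Klra and Klrc families can be split between near-identical copies, so their levels are uncertain. The adaptor gene Fcer1g was in 16 (23.2%) and 11 (28.2%), Tyrobp in 8 (11.6%) and 11 (28.2%), and Hcst, the partner of NKG2D, in 33 (47.8%, 35.6 to 60.2) and 6 (15.4%, 5.86 to 30.5). Thinned, Tyrobp was in 10.7% (4.03 to 21.9) and 38.1% (18.1 to 61.6), and Hcst in 37.5% (24.9 to 51.5) and 23.8% (8.22 to 47.2). Fcer1g and Tyrobp were in 57.7% and 51.4% of the macrophage reference, and the part of free RNA in these counts was not tested.

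Tox, a factor of chronically stimulated T cells, was in 41 (59.4%, 46.9 to 71.1) and 14 (35.9%), but thinned in 51.8% (38.0 to 65.3) and 47.6% (25.7 to 70.2), so that its order was not kept beyond counting error at equal depth. Pdcd1, which encodes PD-1, was in 19 (27.5%) and 1 (2.56%), and Lag3 in 17 (24.6%) and 3 (7.69%). Thinned, Pdcd1 was in 26.8% (15.8 to 40.3) and 0 of 21 cells and Lag3 in 19.6% (10.2 to 32.4) and 9.52% (1.17 to 30.4). Tnfrsf9 (4-1BB) was in 26 (37.7%) and 9 (23.1%), Tigit in 13 and 4 and Havcr2 (TIM-3) in 12 and 3. T-bet (Tbx21), which drives interferon gamma and granzyme genes, was in 16 (23.2%) and 14 (35.9%), while Eomes, its relative, was in 1 and 4. Zbtb16, a factor of innate-like lymphocytes, was in 1 and 7. The interleukin 18 receptor genes Il18rap and Il18r1 were in 26 and 23 CD3-positive cells and 14 and 16 CD3-negative cells. Of the genes for migration, Cxcr6, a receptor of tissue-resident T cells, was in 18 and 2.

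Interferon response genes ranged from scarce to frequent. Ifi27l2a was in 49 CD3-positive cells (71.0%) and 14 CD3-negative cells (35.9%), at 2352 and 1564 CPM, and Irf7 in 20 (29.0%) and 18 (46.2%), at 309.0 and 858.9 CPM. Isg15 was in 21 and 6 cells and Bst2 in 19 and 12, while Ifit1 was in 4 and 1, Ifit3 in 5 and 0 and Gbp2 in 8 and 3. The first 4 of these genes were seen in 49.4% to 76.7% of the macrophage reference cells, at a greater depth. Of the proliferation genes, Hmgb2 and Tubb5 were in 19 and 21 CD3-positive cells and 10 and 11 CD3-negative cells, Top2a in 10 and 6 and Mki67 in 8 and 5.

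The 69 CD3-positive cells were divided further by coreceptor and receptor type. A UMI of Cd8a or Cd8b1 was found in 39 (56.5%, 44.0 to 68.4), and 19 had both. Cd8b1 was in 19 of the 29 cells with Cd8a and in 10 of the 40 without. Cd4 was in 3 cells, 0 of which held a CD8 gene. A constant gene of the gamma-delta receptor (Trdc, Tcrg-C1, Tcrg-C2 or Tcrg-C4) was in 9 cells (13.0%), and all 9 lay among the 30 cells without CD8 (30.0%, 14.7 to 49.4), against 0 of the 39 with CD8, which allows up to 7.69% by the limit of 3 counts used for every count of 0. Of these 9 cells, 8 lay in library 2 of Kmt2c KO, and without that library the gene was in 1 of 25 CD3-positive cells (4.0%, 0.101 to 20.4). An alpha-beta constant gene was in 22 of the 39 and 13 of the 30, and 2 cells held constant genes of both receptor types. The gamma constant genes share sequence, so which of them was counted is uncertain. In 18 cells none of CD8, Cd4 or a gamma-delta gene was seen, and at this depth they cannot be placed.

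The 39 cells with CD8 and the 30 without are set side by side as counts. Prf1 was in 22 of 39 (56.4%) and 8 of 30 (26.7%), Tox in 27 (69.2%) and 14 (46.7%), Pdcd1 in 14 (35.9%) and 5 (16.7%) and Lag3 in 12 and 5. Xcl1 was in 4 (10.3%) and 9 (30.0%), Tyrobp in 2 and 6, Fcer1g in 10 and 6 and the factor Ikzf2 in 8 and 13. Gzmb (14 and 15), Ctsw (14 and 13), Klrk1 (12 and 13), Klrd1 (19 and 12) and Klrc1 (15 and 11) were found on both sides. Cells of a library are not replicates and some genes of the rule enter this split, so it was not tested.

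**Figure D4:**
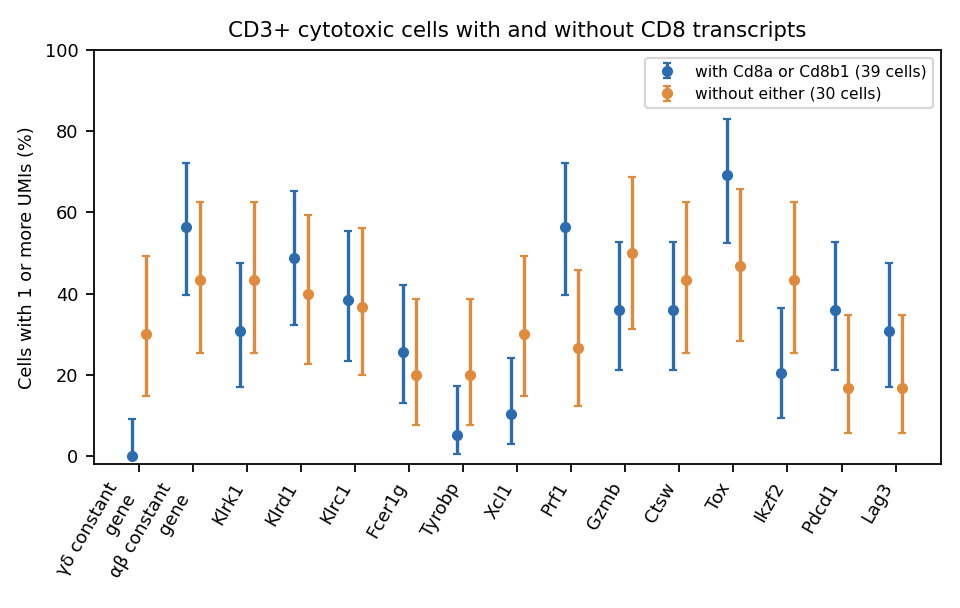
Percent of CD3-positive members with at least 1 UMI of selected genes, in the 39 cells with Cd8a or Cd8b1 and the 30 without, with exact 95% intervals. Prf1 stands at 56.4% and 26.7%, Tox at 69.2% and 46.7% and Xcl1 at 10.3% and 30.0%.

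The 39 CD3-negative cells that were not MHC class II-rich were mixed. NKp46 (Ncr1, chr7:4337715-4345184) was in 12 of them. Of these 12, Klrb1a was in 6, Tyrobp in 6, Fcer1g in 6, Il2rb in 10 and Nkg7 in 10, which are genes of NK cells, and Trbc1 was in 4. Of the 27 cells without Ncr1, Klrb1a was in 1, Tyrobp in 5, Fcer1g in 5, Il2rb in 15, Nkg7 in 12 and Skap1 in 16. An alpha-beta constant gene or Cd3d was in 16 of the 39, 11 of them without Ncr1, and a CD8 gene in 5. A cell without a Cd3e or Cd3g UMI at about 1024 UMIs can therefore not be taken for an NK cell from that alone. The group is called CD3-negative and not NK.

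To test the split over libraries, UMIs were summed per library and state and compared by edgeR's quasi-likelihood test with the library as a block and Benjamini-Hochberg adjustment over all genes tested, at 0.05. Libraries 2 and 3 of Kmt2c KO alone held enough cells in both states, so each fit rests on 2 tumours and 1 residual degree of freedom, and applies to Kmt2c KO tumours. The 17 genes of the rule are left out of all counts, but the genes tested come from the same cells that the rule sorted, and genes expressed together with the rule genes are not independent of it. CD3-positive and CD3-negative cells could be compared only from 5 cells per library and state upward (44 and 27 cells in library 2, 16 and 8 in library 3), since at the intended 10 cells just 1 library was left.

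Against all CD3-negative cells, the CD3-positive cells were lower in 10 antigen presentation and myeloid genes. Of 400 genes tested, 10 (2.50%) passed, all lower in CD3-positive cells. With other settings up to 2 genes were higher, Cd8b1 with DESeq2's size factors and where Cd3d was counted as CD3, and Cd8b1 and Cd3d at a mitochondrial limit of 10%. H2-Ab1 gave 2 UMIs in the CD3-positive and 141 in the CD3-negative cells of library 2, and 2 and 126 in library 3 (log2 fold change -6.76 ± 1.12 SE, adjusted p = 7.97e-07). Cd74, the class II chaperone, gave 8 and 313, then 3 and 272 UMIs (-6.6 ± 1.27, adjusted p = 3.52e-05). The same held for H2-Eb1 (-7.31), H2-Aa (-5.92), the thiol reductase Ifi30 (-5.81), Tgfbi (-5.38), the protease inhibitor Cst3 (-4.28) and the lysosomal Psap (-3.45). Tyrobp gave 9 and 59, then 0 and 21 UMIs (-4.54 ± 1.05, adjusted p = 0.000876). Spi1, the master factor of myeloid cells, gave 0 UMIs in CD3-positive cells against 16 and 8, so that it was at least 15.8-fold lower (adjusted p = 0.0143; bound from 3 counts over the group). Of the 13 MHC class II-rich cells, 7 lie among the 35 CD3-negative cells of these libraries. They held 24 of the 24 Spi1 UMIs of those cells, 36 of the 37 Ifi30 UMIs and 292 of the 302 Cst3 UMIs, but 88 of the 129 Psap UMIs (68.2%) and 49 of the 80 Tyrobp UMIs (61.2%). Without the 13 cells, and from 3 cells upward, 0 of 326 genes passed and 23 had an unadjusted p under 0.05. Cd8b1 (36 and 9 UMIs in CD3-positive cells, 0 and 0 in CD3-negative cells, at least 7.59-fold, adjusted p = 0.057) and Thy1 (log2 fold change 3.18 ± 1.23, adjusted p = 0.232) did not pass, nor did Fcer1g (-1.99 ± 0.88) and Irf7 (-2.01 ± 0.88), both at adjusted p = 0.384.

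By list, 2 receptor complex genes and 5 T lineage genes could be tested, all 7 with positive log2 fold changes (medians 2.55 and 1.22, against 0.1 over all 400 genes) and none past the threshold. Of 7 interferon response genes 1 had a positive value (median -0.71). Without the MHC class II-rich cells 8 of 18 listed genes changed sign, among them Skap1 to a negative and Isg15 and Ly6a to a positive value. Of 3 adaptors 1 had a positive value (median -1.99, Tyrobp called). The tests had little reach for the NK receptor and granule lists, of which 1 gene each outside the rule was abundant enough.

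Next, the cytotoxic CD3-positive cells were compared with the 111 other CD3-positive cells, which pass the same exclusions with at most 1 of the 8 genes (44 against 49 cells in library 2, 16 against 12 in library 3). No gene of 1000 tested passed in edgeR (0%), and 13 had an unadjusted p under 0.05, 9 of them higher. DESeq2 also called 0, with 17 at an unadjusted p under 0.05. Of the 13, 5 were listed genes, all higher in the cytotoxic cells and all at adjusted p = 0.999. Ccl4 gave 33 UMIs against 7 in library 2 and 25 against 0 in library 3 (log2 fold change 3.67 ± 1.4 SE). The others were Klrd1 (28 against 10, 21 against 1), Fcer1g (36 against 5, 4 against 1), Cd8b1 (36 against 11, 9 against 0) and Klrc1 (20 against 6, 11 against 2). They were picked by their p in these same tumours, so their direction in each is no separate evidence. Listed medians were 2.28 for 3 NK receptors, 1.32 for 5 transcription factors, -0.65 for 9 interferon response genes and -0.04 for 5 inhibitory and costimulatory receptors, against -0.06 over all genes.

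Finally, they were compared with the 163 CD3-positive cells that held Foxp3 or Ctla4 (44 against 66 cells in library 2, 16 against 23 in library 3). The cytotoxic cells were higher in 2 of 3 NK receptor genes tested and lower in 2 of 10 inhibitory and costimulatory genes. Of 2 granule genes tested outside the rule, 0 passed (median log2 fold change 0.16 against -0.1 over all genes). The compared cells also held killing transcripts, in 143 of 163 cells. Over all libraries and with the genes of the rule, granule and killing genes summed to 3948 CPM in them and 3545 CPM in the CD3-positive members. Cytokine and chemokine genes summed to 4305 and 2704 CPM, and NK receptors to 988.0 and 2609 CPM. Of 1165 genes tested, 35 passed (3.0%), 22 higher (1.89%) and 13 lower (1.12%), and 5 and 3 of the 69 listed genes tested were among them. The count depended on the processing: it was 0 with DESeq2's size factors in edgeR, 1 in DESeq2 and 7 without the low-count filter, and the calls below hold for the fit as stated. The 2 cell sets were separated by Foxp3 and Ctla4, so that genes expressed together with these are not independent of the choice.

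Il18rap, a chain of the interleukin 18 receptor, gave 22 UMIs against 4 in library 2 and 21 against 4 in library 3 (log2 fold change 3.27 ± 0.71 SE, adjusted p = 0.000882). Klrd1 gave 28 against 16 and 21 against 2 (2.49 ± 0.68, adjusted p = 0.0191), and Klrc1 20 against 8 and 11 against 2 (2.47 ± 0.68, adjusted p = 0.0191). Fcer1g gave 36 against 9 and 4 against 2 (2.44 ± 0.71, adjusted p = 0.0263) and Themis 20 against 7 and 9 against 3 (2.31 ± 0.72, adjusted p = 0.0435). All 5 gave more UMIs in each tumour, although the cytotoxic cells were fewer in each. They were picked by their p in these same tumours, so their direction in each is no separate evidence. Beyond the lists, the largest rises were those of Setbp1 (29 against 5 and 30 against 0 UMIs, 4.42 ± 0.82, adjusted p = 3.18e-05), the survival gene Bcl2 (66 against 10 and 21 against 2, 3.7 ± 0.76, adjusted p = 0.000293), Atp8b4 (3.58), the chondroitin sulfotransferase Chst11 (3.58) and the phosphatase Ppm1h (3.18).

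On the lower side, Tnfrsf4 (OX40, a costimulatory receptor) gave 8 UMIs against 178 in library 2 and 5 against 39 in library 3 (-2.97 ± 0.84, adjusted p = 0.0211). The checkpoint receptor gene Tigit gave 9 against 101 and 2 against 33 (-2.88 ± 0.78, adjusted p = 0.0191). Ccl3 gave 8 against 177 and 3 against 10 (-2.83 ± 0.88, adjusted p = 0.0458), but 1 cell held 55.1% of its UMIs in the compared cells. The other named falls were those of the chemokine receptor Ccr8 (1 against 42 and 1 against 8, -3.74 ± 1.01), the factor Maf (1 against 47 and 2 against 20, -3.52 ± 0.83), the lysosomal activator Gm2a (-4.33), the tetraspanin Cd81 (-2.96) and Atrnl1 (-2.93). All 10 inhibitory and costimulatory genes tested had negative log2 fold changes, with a median of -1.82 against -0.1 over all genes, and 2 passed. With DESeq2's size factors, which moved the median of all genes from -0.1 to 0.01, and in DESeq2 itself Pdcd1 and Havcr2 were positive. Pdcd1 was also positive at the 10% mitochondrial limit, without Ccl5 and with 3 of 8 genes, and Entpd1 with 3 of 8 genes. All 3 NK receptors tested had positive values, with a median of 2.47, and 2 passed. Cd4 missed the threshold (-3.56 ± 1.13, adjusted p = 0.0504), as did Icos (-2.43 ± 0.78, adjusted p = 0.0575). Ctsw, which was higher in the cytotoxic cells (2.18 ± 0.71, adjusted p = 0.0575), also missed it. Whether a gene differed more here than against the other CD3-positive cells was not tested, and the comparisons share the cytotoxic cells.

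**Figure D5:**
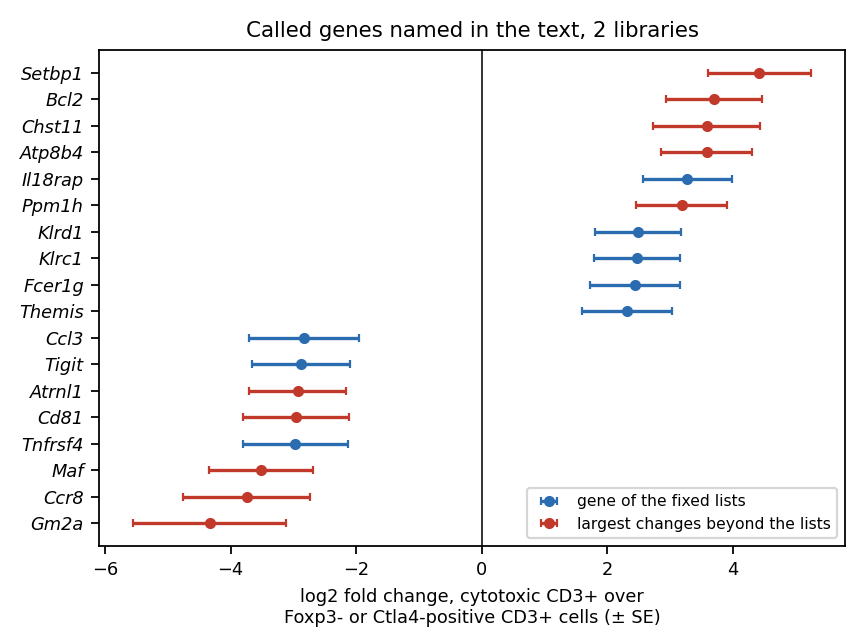
Log2 fold change with its approximate standard error for the called genes named in the text. Cytotoxic CD3-positive cells are set against CD3-positive cells with Foxp3 or Ctla4, by edgeR over libraries 2 and 3 of Kmt2c KO. Named genes that missed the threshold are not shown. Setbp1, Bcl2, Il18rap, Klrd1, Klrc1, Fcer1g and Themis lie above 0, and Tnfrsf4, Tigit, Ccr8, Maf and Gm2a lie below it.

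By genotype, the members' values rest on 12 WT, 89 Kmt2c KO and 7 Kmt2d KO cells once the MHC class II-rich cells are left out, and are pooled values with exact Poisson intervals and no test. The CD3-positive share of all members was 35.7%, 63.5% and 27.3% for WT, Kmt2c KO and Kmt2d KO, and 41.7%, 68.5% and 42.9% without the MHC class II-rich cells, which turned the order of WT and Kmt2d KO. By library it was 20.0%, 100% and 16.7% of 5, 3 and 6 members in WT. The Kmt2c KO libraries gave 100%, 62.0% and 66.7% of 1, 71 and 24 members. In Kmt2d KO the share was 50.0%, 20.0% and 0% of 4, 5 and 2 members. NK receptor genes outside the rule summed to 4170 CPM (3250 to 5280) in the WT cells, to 2380 (2130 to 2660) in the Kmt2c KO cells and to 1330 (727 to 2230) in the Kmt2d KO cells, but the Kmt2c KO value was 3860 without library 2. Interferon response genes summed to 3320 CPM (2500 to 4330) in the WT cells, to 6420 (6000 to 6860, 5810 without library 2) in the Kmt2c KO cells and to 2660 (1770 to 3850) in the Kmt2d KO cells, where 1 cell held 30.9% of the WT and 71.4% of the Kmt2d KO UMIs. Over all members the interferon sum of Kmt2d KO was 7490 CPM against 3480 for WT and 7530 for Kmt2c KO, so that leaving out 4 MHC class II-rich cells turned its order with WT. In the inhibitory and costimulatory list, the sum of 5020 CPM for WT stood against 1600 for Kmt2c KO (2560 without library 2) and 1620 for Kmt2d KO, and 1 WT cell held 54.2% of the WT UMIs. Proliferation genes stood at 1090, 1330 and 1240 CPM, but at 86.7 CPM in Kmt2c KO without library 2. The sums of WT and Kmt2d KO are therefore largely values of a few cells.

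For the other lists the sums are given in the order WT, Kmt2c KO and Kmt2d KO. Without library 2 of Kmt2c KO, several orders turned or values moved by over 1.5 times. T lineage genes summed to 4960, 4020 and 3230 CPM, with Kmt2c KO at 6370 CPM without library 2, above WT. Cytokine receptors summed to 2720, 1850 and 2090 CPM (2950 without library 2, again above WT), and transcription factors to 3140, 3010 and 3330 CPM (4340 without it, above both others). Cytokine and chemokine genes outside the rule stood at 2060, 1290 and 1810 CPM (1950 without it) and adaptors at 1870, 1240 and 1140 CPM (824 without it). The largest ratios of highest to lowest were those of receptor complex genes at 1150, 1600 and 475 CPM and of granule genes outside the rule at 1810, 1360 and 570 CPM, which stayed at 1560 and 1390 CPM in Kmt2c KO without library 2. These Kmt2d KO values rest on 5 UMIs (154 to 1110 CPM) and 6 UMIs (209 to 1240 CPM). In WT, 1 cell held 42.1% of the receptor complex UMIs and 1 cell 46.7% of the granule UMIs. Trafficking receptors stood at 1090, 860 and 1330 CPM (954 without it). Over all members, several Kmt2d KO sums also moved by over 1.5 times, to 745 CPM for NK receptors, 196 for receptor complex, 1330 for T lineage, 745 for cytokine and chemokine, 1450 for granule, 823 for proliferation and 2670 for adaptor genes. The WT sums for receptor complex, T lineage, adaptor, cytokine and chemokine, and inhibitory and costimulatory genes were then 742, 3200, 3120, 1370 and 3320 CPM. Among single genes, Il2rb was in 8 of 12, 61 of 89 and 5 of 7 cells and Tox in 8, 44 and 3. Ifi27l2a was in 7 of 12, 55 of 89 and 1 of 7, and Cd8b1 in 2, 26 and 2. Of the genes of the rule, Nkg7 was in 9, 64 and 6 cells, Gzmb in 5, 36 and 1, Prf1 in 1, 40 and 0 and Ncr1 in 2, 10 and 2.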

How the data were processed

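UMI counts per gene and barcode were used as deposited by the authors in 1 matrix for the 9 libraries. The submitters' processing notes name Cell Ranger 7.0.1 and mm10; a thinning of libraries to a common depth in the aggregation is not stated. The gene and mitochondrial limits are those of the study. The library of a barcode was read from its suffix and its genotype from the letter in the aggregation table, read through the comparisons that the study names. The 9 GEO samples could not be tied to libraries, and 0 columns were left unmatched. No doublet caller was run and no cell was removed as a doublet.

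The members and the 19 gene lists (203 genes) were chosen with earlier results of these data known. Lists were described by counts and medians. Named genes were all listed genes and, beyond them, the 10 largest called rises and falls for CD3-positive against CD3-negative cells and the 5 largest for the other comparisons, of 1 direction in every library of the fit. Genotype values cover listed genes with at least 20 UMIs over the members (87 genes). Counts of 0 are given with the limit that 3 counts allow. Other shares have exact Clopper-Pearson and CPM exact Poisson intervals at 95%. Sums were tested with edgeR 4.0.16 (TMM, filterByExpr, quasi-likelihood) in R 4.3.3, DESeq2 1.42.0 being an alternative, after tests on simulated counts. The SE of a log2 fold change is approximate: its absolute value was divided by the square root of the F statistic of the test. Coordinates are from RefSeq GRCm38.p6, the same build as mm10. Gene copies that share reads (Klra, Ly6a, Ifi27l2a, Gzmd to Gzmg and MHC genes) have uncertain levels. Some listed genes are not reported here.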

Additional observations from a re-analysis of the deposited data

How the results depend on the processing

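No paired analysis was possible because the GEO replicate numbers tie to no library; the only pairing was that of the 2 cell states within a library, kept as a block in every fit. Leaving out each library in turn, and 20 cells per library and state, left no residual degrees of freedom or 1 library and were not run. For CD3-positive against CD3-negative cells, the thinned cells, 3 of 8 genes and Ccl5 not counted were not run, since 1 library had 5 cells in both states, nor was the test of median UMIs. For the other CD3-positive cells, thinning to 1000 UMIs left too few cells. Alternatives that left out the MHC class II-rich cells or library 2 or combined 5 cells with another choice were chosen after seeing the data.

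The 10 calls against CD3-negative cells became 0 where the MHC class II-rich cells were left out and the least number of cells lowered to 3 at the same time (4 CD3-negative cells left in library 3), and were 17 at 5 cells with the 10% mitochondrial limit (2 higher in CD3-positive cells), and stayed within 8 to 13 otherwise, with 1 higher under DESeq2's size factors and 1 with Cd3d counted as CD3. In the last of these Cd3d, which defines that split, was left out of the count like the other genes of the rule, and with it 14 passed. The 35 calls against Foxp3- or Ctla4-positive cells became 0 with DESeq2's size factors (115 at an unadjusted p under 0.05), 7 without the filter, 1 in DESeq2 (66 at an unadjusted p under 0.05), 9 at the 10% limit, 15 with 3 of 8 genes and 21 without Ccl5, and were 51 of 378 genes after thinning (22 higher, 29 lower). Lowering the limit to 5 cells kept the same 2 libraries in this fit, so its calls could not change. Of the 8 listed calls, 6 were shared after thinning, 4 without Ccl5 and 1 each at the 10% limit and with 3 of 8 genes. With DESeq2's size factors, without the filter and in DESeq2, 0 were shared. The cause was not tested. Against the other CD3-positive cells, the alternatives that could be run gave 0. The listed genes with an unadjusted p under 0.05 kept their direction in the alternatives that tested them; among all listed genes 0 to 8 changed sign, depending on the alternative. Against Foxp3- or Ctla4-positive cells 37 values lost and 12 gained their call. The other 183 did not change, which includes genes called in neither setting.

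The pooled shares moved to 0.0906%, 0.246% and 0.0198% (WT, Kmt2c KO, Kmt2d KO) in cells thinned to 1000 UMIs, to 0.111%, 0.177% and 0.00726% with 3 of 8 genes, and without Ccl5 to 0.2%, 0.278% and 0.0181%. They were 5.42%, 10.7% and 3.03% of cells with Ptprc, and 0.14% in Kmt2c KO without library 2 (5.93% of cells with Ptprc). The CD3-positive share of 57.0% became 71.2% thinned and 70.4% with 3 of 8 genes, but 50.0% (25 of 50 cells) without library 2 of Kmt2c KO.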
